A study of Mus musculus with 6 samples.

Results

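The 9 genes described here encode transcription factors that drive or tune fat-cell formation: Pparg, Rxra, Cebpa, Cebpb, Cebpd, Klf4, Klf5, Klf15 and Ebf1. Members were all probe sets whose platform annotation gave exactly one of these symbols, which is 20 of the 45037 probe sets tested and 9 of the 18193 genes with a probe set of their own. Pparg, Cebpa and Klf15 have 1 probe set each, Cebpb, Cebpd and Klf4 have 2, Rxra and Klf5 have 3, and Ebf1 has 5. Each gene is given by the probe set with its highest mean over the 6 arrays, and the others stand beside it.

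Commercially supplied mouse mesenchymal stem cells were grown in 6 cultures over 3 experiments, each with 1 irradiated culture and 1 control, and their RNA was hybridized to Affymetrix arrays. The 3 irradiated cultures received 2 h of broadband terahertz radiation centred near 10 THz, in pulses of 35 fs at 1 kHz and an average of 1 mW/cm2. The 3 control cultures stood next to them unexposed, and both arms were kept at 26 to 27 °C. Both arms had dexamethasone (1 µM), the phosphodiesterase inhibitor IBMX (3-isobutyl-1-methylxanthine, 100 µM), insulin (5 µg/ml) and rosiglitazone (spelled roziglitazone in the labels, 1 µM), renewed 48 h before exposure. RNA was taken when exposure ended, the labels give no genotype, strain, age or number of donors, and cultures are numbered below by their experiment. Levels are log2 values as deposited, and differences of 1 are 2-fold.

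Fat-cell formation runs as a relay of transcription factors. Hormones and cAMP first induce CEBPB, CEBPD and several Krüppel-like factors, and these switch on PPARG and CEBPA, which then maintain each other and the genes of the mature fat cell. PPARG binds DNA together with RXRA and is the receptor through which rosiglitazone acts. Dexamethasone is known to induce Cebpd, and IBMX, which raises cAMP, is known to induce Cebpb and Klf4.

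Klf4, Cebpb, Cebpd and Ebf1 differed between experiments, and none of the 9 factors passed the test with irradiation. Klf4 was 7.26-fold higher in experiment 3 than in experiment 1, and Cebpb was 1.96-fold and Cebpd 1.64-fold higher, whereas Ebf1 was 1.51-fold lower, a call that was lost with no irradiation term in the fit (limma adjusted p = 0.072). Between experiments 3 and 1, 1.87% of all probe sets passed as higher and 1.18% as lower. With dim probe sets left out (both experiment means below the median level), 1250 of 23097 passed as higher and 1346 as lower. Pparg and Cebpa, the late factors, did not pass the test in any comparison. Between irradiated and control cultures 0.0% of all probe sets passed, none of the 9 among them, and the 95% interval of each of the 9 differences lay inside 1.5-fold.

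Fat-cell transcripts were abundant on all 6 arrays, with Fabp4 between 14.36 and 14.48 and Adipoq between 13.62 and 13.94. Of the 8 fat-cell markers 6 were measured, and leptin (Lep) was dim, between 2.65 and 2.89. All 10 macrophage and leukocyte markers were measured, among them Lyz2 between 14.15 and 14.25 and the macrophage growth factor receptor Csf1r between 12.42 and 12.80. The stromal marker Thy1 was dim, between 3.51 and 4.07, while Pdgfrb lay between 10.66 and 10.97. Control culture 3 stands apart in its spike-in probe sets for hybridization, whose mean was 11.63 there and 11.06 to 11.25 elsewhere. As a measure of RNA integrity, the Gapdh signal at the 3′ end exceeded that at the 5′ end by 0.23 in the irradiated and 0.19 in the control culture of experiment 1. In the 4 cultures of experiments 2 and 3 this difference lay between -0.05 and -0.01. The same measure for Actb was 0.76 in the irradiated and 0.75 in the control culture of experiment 1, 0.62 in irradiated and 0.72 in control culture 3, and 0.61 and 0.62 in irradiated and control culture 2. In a culture, fewer cells that express a gene and less of its RNA per cell cannot be told apart.

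The starts of Klf4 and Cebpb are shown because these genes differed most between experiments, that of Ebf1 because it differed the other way, and that of Klf15 because it holds the same letters without passing the test. Each is 1 RefSeq window of the mouse assembly GRCm38.p6, from 250 bases before to 50 bases after a start. Capitals mark TGACG on either strand (CGTCA on the other), the half-site of the cAMP response element bound by CREB, the factor that cAMP signalling activates.
Klf4 (chr4:55532426-55532725, minus strand): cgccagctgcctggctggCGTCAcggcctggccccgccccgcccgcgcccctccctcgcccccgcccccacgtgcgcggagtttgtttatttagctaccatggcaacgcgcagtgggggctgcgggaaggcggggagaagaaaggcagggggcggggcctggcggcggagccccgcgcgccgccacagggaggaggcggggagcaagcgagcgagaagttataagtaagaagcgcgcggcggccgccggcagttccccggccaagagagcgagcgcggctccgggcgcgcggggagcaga
Cebpb (chr2:167688665-167688964, plus strand): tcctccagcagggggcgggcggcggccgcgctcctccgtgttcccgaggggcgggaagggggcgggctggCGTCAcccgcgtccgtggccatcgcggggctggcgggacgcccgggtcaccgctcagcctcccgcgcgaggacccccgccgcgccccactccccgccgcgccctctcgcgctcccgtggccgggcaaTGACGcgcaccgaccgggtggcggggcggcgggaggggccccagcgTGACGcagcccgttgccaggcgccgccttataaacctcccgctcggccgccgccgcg
Klf15 (chr6:90462326-90462625, plus strand): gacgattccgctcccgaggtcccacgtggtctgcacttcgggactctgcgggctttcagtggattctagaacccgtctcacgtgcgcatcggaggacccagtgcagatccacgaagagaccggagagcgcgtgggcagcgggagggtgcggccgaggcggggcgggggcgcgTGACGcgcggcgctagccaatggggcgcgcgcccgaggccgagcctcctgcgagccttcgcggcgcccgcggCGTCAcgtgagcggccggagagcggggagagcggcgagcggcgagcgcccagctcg
Ebf1 (chr11:44617850-44618149, plus strand): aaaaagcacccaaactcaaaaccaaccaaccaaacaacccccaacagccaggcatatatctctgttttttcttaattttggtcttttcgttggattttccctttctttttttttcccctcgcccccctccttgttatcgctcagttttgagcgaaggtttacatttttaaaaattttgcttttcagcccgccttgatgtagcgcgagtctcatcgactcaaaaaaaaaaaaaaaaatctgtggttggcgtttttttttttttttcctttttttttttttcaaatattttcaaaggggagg

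RefSeq windows matched 7 of the 9 genes, 11 windows in all. The half-site occurs 3 times in the Cebpb window, 180, 53 and 7 bases before the start, and once in that of Klf4, 232 bases before it. Klf15 holds it 78 and 6 bases before the start. It is absent from the Ebf1 window above and occurs once in a second Ebf1 window (chr11:44619978-44620277), 22 bases after that start. The windows of Pparg, Rxra and Cebpa do not hold it. Among 32851 mouse windows of this length 20.8% hold it, so these matches are a description of the sequence and not sites of binding. The full element TGACGTCA, which contains the half-site, is in 1.79% of windows and in none of the 11. The PPAR response element, a direct repeat that PPARG binds with RXRA, was searched without mismatches, is in 0.0396% of windows and in none of the 11. The E-box CACGTG, held by 7.15% of windows, occurs once in the Klf4 window and 3 times in that of Klf15, where one overlaps a half-site. TATAAA, held by 13.6%, is in the Cebpa and 1 of the Pparg windows, 30 and 29 bases before the start. In the Cebpb window it lies 21 bases after the start. CCAAT, held by 37.4%, is in the Klf15 and 2 of the Pparg windows.

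Of the 3 Krüppel-like factors among the 9 genes, Klf4 differed between experiments and Klf5 and Klf15 did not pass. KLF4, a zinc finger factor of the first hours of fat-cell formation that activates Cebpb, is encoded at chr4:55527137-55532475. Its RNA stood at 9.50, 12.12 and 12.31 in irradiated cultures 1, 2 and 3, and at 9.61, 12.11 and 12.52 in their controls. Both arrays of experiment 1 were low and the 4 others were high, with no overlap. Klf4 was 2.86 ± 0.10 higher in experiment 3 than in experiment 1 (SE, n = 2 cultures each), with a 95% interval of 2.61 to 3.11 and an adjusted p of 0.00029 by limma. It was 2.56 ± 0.10 higher in experiment 2 than in experiment 1 (limma adjusted p = 0.0028), and 0.30 ± 0.10 higher in experiment 3 than in experiment 2, which did not pass (limma adjusted p = 0.44). Its second probe set gave 8.08, 10.56 and 10.86 in irradiated cultures 1, 2 and 3, and 8.15, 10.55 and 11.18 in their controls, the same split of the arrays.

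KLF5, which acts between the early C/EBP factors and Pparg, is encoded at chr14:99298691-99313412. Klf5 stood at 7.34, 7.88 and 7.71 in irradiated cultures 1, 2 and 3, and at 7.44, 7.64 and 8.35 in their controls. Control culture 3 was the highest array, and both arrays of experiment 1 were the lowest. The difference of 0.64 ± 0.20 between experiments 3 and 1 did not pass (limma adjusted p = 0.16), and its 95% interval ran from 0.15 to 1.13. Its 2 other probe sets were dimmer, at 4.30 to 4.86 and 2.80 to 3.34. They had differences of 0.30 and 0.335 that did not pass (limma adjusted p = 0.18 and 0.22).

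KLF15, which is known to raise Pparg and the glucose transporter gene Slc2a4 in fat cells, is encoded at chr6:90461043-90491803. Klf15 stood at 7.01, 6.41 and 6.72 in irradiated cultures 1, 2 and 3, and at 7.05, 6.72 and 6.60 in their controls. Experiment 1 held both highest arrays, the reverse of Klf4. Neither experiment 3 nor experiment 2 passed against experiment 1, with differences of -0.37 ± 0.13 and -0.47 ± 0.13 (limma adjusted p = 0.19 and 0.31).

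The early C/EBP factors were also lowest in experiment 1. CEBPB, a leucine zipper factor that helps to switch on Pparg and Cebpa, is encoded at chr2:167688915-167690432. Cebpb stood at 11.49, 12.11 and 12.34 in irradiated cultures 1, 2 and 3, and at 11.49, 12.09 and 12.58 in their controls. The 3 experiments did not overlap, and within experiments 1 and 2 the arms lay within 0.02 of each other. Experiment 3 was 0.97 ± 0.11 higher than experiment 1, with a 95% interval of 0.71 to 1.23 (limma adjusted p = 0.011). Experiment 2 was 0.61 ± 0.11 higher than experiment 1 and did not pass (limma adjusted p = 0.12). The second Cebpb probe set was 1.28 higher in experiment 3 than in experiment 1 (limma adjusted p = 0.0080).

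CEBPD, the partner of CEBPB in the early wave, is encoded at chr16:15887286-15889545. Cebpd stood at 11.20, 11.48 and 11.75 in irradiated cultures 1, 2 and 3, and at 11.14, 11.55 and 12.01 in their controls. Again the 3 experiments did not overlap, and control culture 3 was the highest array. Experiment 3 was 0.71 ± 0.11 higher than experiment 1, with a 95% interval of 0.44 to 0.98 (limma adjusted p = 0.032). A second, dimmer probe set had a difference of 0.45 that did not pass (limma adjusted p = 0.098).

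EBF1, a factor of early fat-cell and B-cell formation, is encoded at chr11:44618100-45008096. Ebf1 stood at 9.99, 9.53 and 9.45 in irradiated cultures 1, 2 and 3, and at 10.20, 9.90 and 9.56 in their controls. Experiment 1 held both highest arrays. Experiment 3 was lower than experiment 1, with a difference of -0.59 ± 0.11 and a 95% interval of -0.85 to -0.33 (limma adjusted p = 0.045). With no irradiation term in the fit this call was lost (limma adjusted p = 0.072). The 4 other Ebf1 probe sets had differences between -0.70 and -0.55, all negative, and none of them passed (limma adjusted p between 0.052 and 0.12).

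RXRA, the DNA-binding partner of PPARG, is encoded at chr2:27676445-27763319. Rxra stood at 8.83, 8.41 and 8.23 in irradiated cultures 1, 2 and 3, and at 8.71, 8.45 and 8.30 in their controls. Experiment 1 was higher than the other experiments on both arrays, and the difference of -0.51 ± 0.10 between experiments 3 and 1 did not pass (limma adjusted p = 0.059). It passed with dim probe sets left out (limma adjusted p = 0.025), with a prior that follows the level (0.0082) and with no irradiation term (0.031). The 2 other Rxra probe sets had differences of 0.14 and -0.06, so the 3 probe sets of this gene do not share a sign.

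PPARG, the nuclear receptor that commits cells to fat, is encoded at chr6:115360879-115490404. Pparg stood at 9.54, 9.52 and 9.35 in irradiated cultures 1, 2 and 3, and at 9.67, 9.81 and 9.33 in their controls. Both arrays of experiment 3 lay lowest among the cultures of their own arm, and the arms overlapped. Its difference between experiments 3 and 1 was -0.27 ± 0.11, with a 95% interval of -0.53 to 0.0029 (limma adjusted p = 0.27). Between experiments 3 and 2 it was -0.325 ± 0.11, with a 95% interval of -0.59 to -0.06, and did not pass (limma adjusted p = 0.44).

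CEBPA, which sustains Pparg and insulin sensitivity in the mature fat cell, is encoded at chr7:35119293-35121928. Cebpa stood at 10.86, 10.65 and 10.75 in irradiated cultures 1, 2 and 3, and at 10.96, 10.94 and 10.75 in their controls. All 6 values lay within a range of 0.31, the narrowest of the 9 genes. Its difference between experiments 3 and 1 was -0.16 ± 0.11 (limma adjusted p = 0.48).

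**Figure D1:**
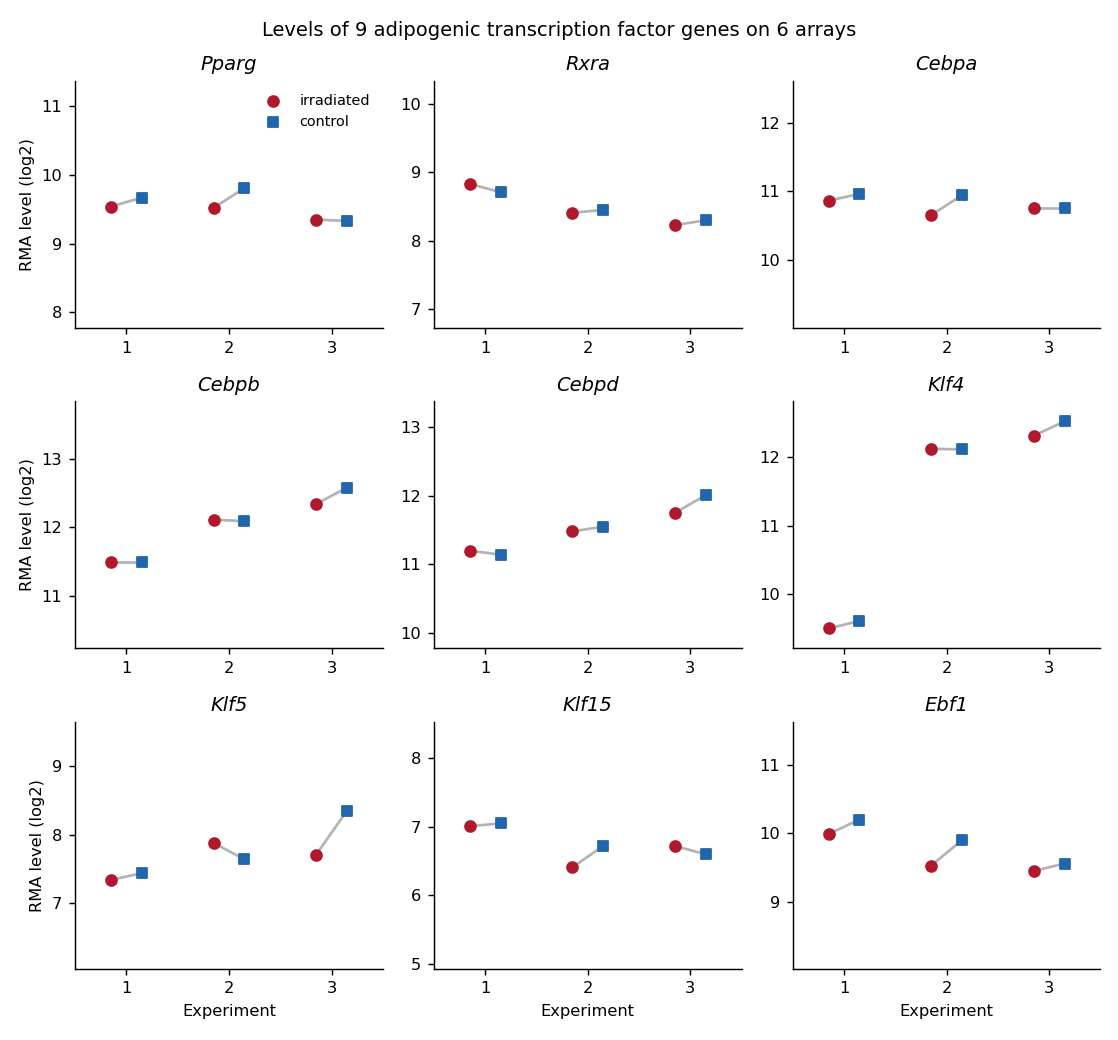
Levels of the 9 genes on the 6 arrays, by experiment, with irradiated cultures as circles left of their controls as squares and lines joining the cultures of 1 experiment. Each vertical axis is an RMA log2 level with a span common to all panels. Klf4 lies at 9.50 and 9.61 in experiment 1, against 12.11 to 12.52 in the other experiments, while Cebpa stays within a range of 0.31.

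By the count of calls, 4 of the 9 genes passed between experiments 3 and 1. Klf4, Cebpb and Cebpd were higher and Ebf1 was lower. Of the 20 member probe sets, 5 were called higher and 1 lower. Of all probe sets 1.87% were called higher and 1.18% lower, and with dim ones left out 1250 and 1346 of 23097. Between experiments 2 and 1 Klf4 alone of the 9 genes passed, with both its probe sets higher. Of all probe sets 0.473% were called higher in that comparison and 0.0466% lower. Between experiments 3 and 2 none of the 9 passed by limma, where 0.0355% of all probe sets were called. An unadjusted p under 0.05 was seen for 4 of the 9 genes and for 4454 of all 45037 probe sets. These 3 comparisons share cultures. Each experiment has 2 cultures, 1 of them irradiated, so these p-values measure the spread of these cultures only. No call in these comparisons held when any 1 of the 6 arrays was left out, which leaves 1 experiment with 1 culture. The cause of this loss was not tested. Without control culture 3 the difference between experiments 3 and 1 was 2.78 for Klf4, 0.84 for Cebpb, 0.58 for Cebpd and -0.50 for Ebf1. The part that RNA integrity, read from the Gapdh and Actb values given above, plays in the contrast of experiment 1 with the others was not tested.

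**Figure D2:**
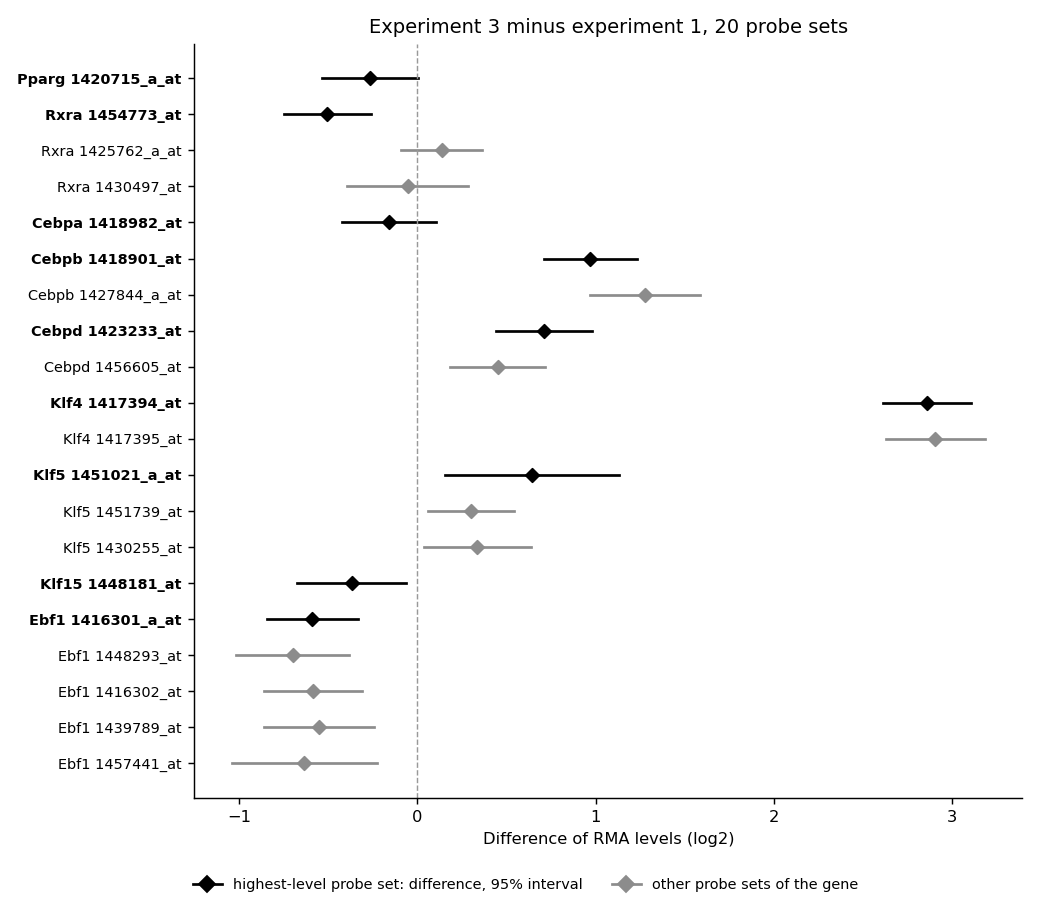
Difference of log2 levels between experiment 3 and experiment 1 for the 20 member probe sets, with 95% intervals of limma's fit. Black diamonds are the highest-level probe set of each gene and grey ones its others. Both Klf4 probe sets lie near 2.9, all 5 Ebf1 probe sets lie below 0, and the 3 Rxra probe sets lie on both sides of 0.

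The share of a gene's sum of squares that lay between experiments was 99.7% for Klf4, 97.1% for Cebpb, 96.2% for Rxra and 93.0% for Cebpd. It was 81.2% for Klf15, 78.7% for Ebf1, 70.2% for Pparg and 63.4% for Klf5. Cebpa had the smallest share, 36.7%, with 34.1% between irradiated and control cultures. Ebf1 followed with 17.5% between the arms and Pparg with 15.7%. Spread between single arrays also adds to each of these shares. They were not computed over all probe sets and carry no test.

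Irradiation was compared with the control of the same experiment. Differences were negative for 8 of the 9 genes and positive for 1. Their median was -0.10, whereas the median over all probe sets was 0.0033 and 47.6% of them were negative. None of the 9 passed (limma adjusted p between 0.93 and 0.99), and 1, Ebf1, had an unadjusted p under 0.05. The median over the 9 genes was -0.10, -0.07 and -0.11 in experiments 1, 2 and 3.

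Ebf1 was the only one of the 9 that was lower in the irradiated culture of every experiment, by 0.21, 0.37 and 0.11 on the log2 scale in experiments 1, 2 and 3. A negative difference in all 3 experiments was seen in 11.2% of all probe sets. Its fitted difference was -0.23 ± 0.09 (SE, n = 3 pairs), with a 95% interval from -0.44 to -0.02 (unadjusted p = 0.036 and adjusted p = 0.93 by limma). The 4 other Ebf1 probe sets had differences of -0.07, -0.06, -0.06 and 0.01, none with 1 sign in all 3 experiments.

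Pparg had a difference of -0.13 ± 0.09 with a 95% interval from -0.35 to 0.09, and Cebpa one of -0.13 ± 0.09 with an interval from -0.35 to 0.09. For both genes the irradiated culture was lower in experiments 1 and 2, by 0.13 and 0.29 for Pparg and by 0.10 and 0.29 for Cebpa. Experiment 3 had differences of 0.02 and 0.00 for these genes. Rxra had a fitted difference of 0.00 ± 0.08 and an interval from -0.19 to 0.20, and its sign turned with median centring of the arrays.

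For the early factors, the arms differed mainly in experiment 3. The differences there were -0.24 for Cebpb, -0.26 for Cebpd, -0.21 for Klf4 and -0.64 for Klf5. In experiments 1 and 2 they were 0.00 and 0.02 for Cebpb, 0.06 and -0.07 for Cebpd, -0.11 and 0.01 for Klf4, and -0.10 and 0.24 for Klf5. In experiment 3 the second probe sets of Cebpb, Cebpd and Klf4 had differences of -0.35, -0.28 and -0.32. The 2 dimmer Klf5 probe sets had -0.22 and 0.27 there, so those of Klf5 do not share a sign. By the highest-level probe sets, control culture 3 was the highest of all 6 arrays for each of these 4 genes. It also had the highest spike-in level and the lowest mean of the 3 measured proliferation markers, 8.89 against 9.48 in irradiated culture 3 and 9.38 to 9.61 on the other arrays. The part of these in the differences was not tested. Without experiment 3 the difference was 0.01 for Cebpb and 0.07 for Klf5, against -0.07 ± 0.09 and -0.17 ± 0.16 with it. Klf15 had a difference of -0.08 ± 0.10, which was 0.04 without experiment 2.

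**Figure D3:**
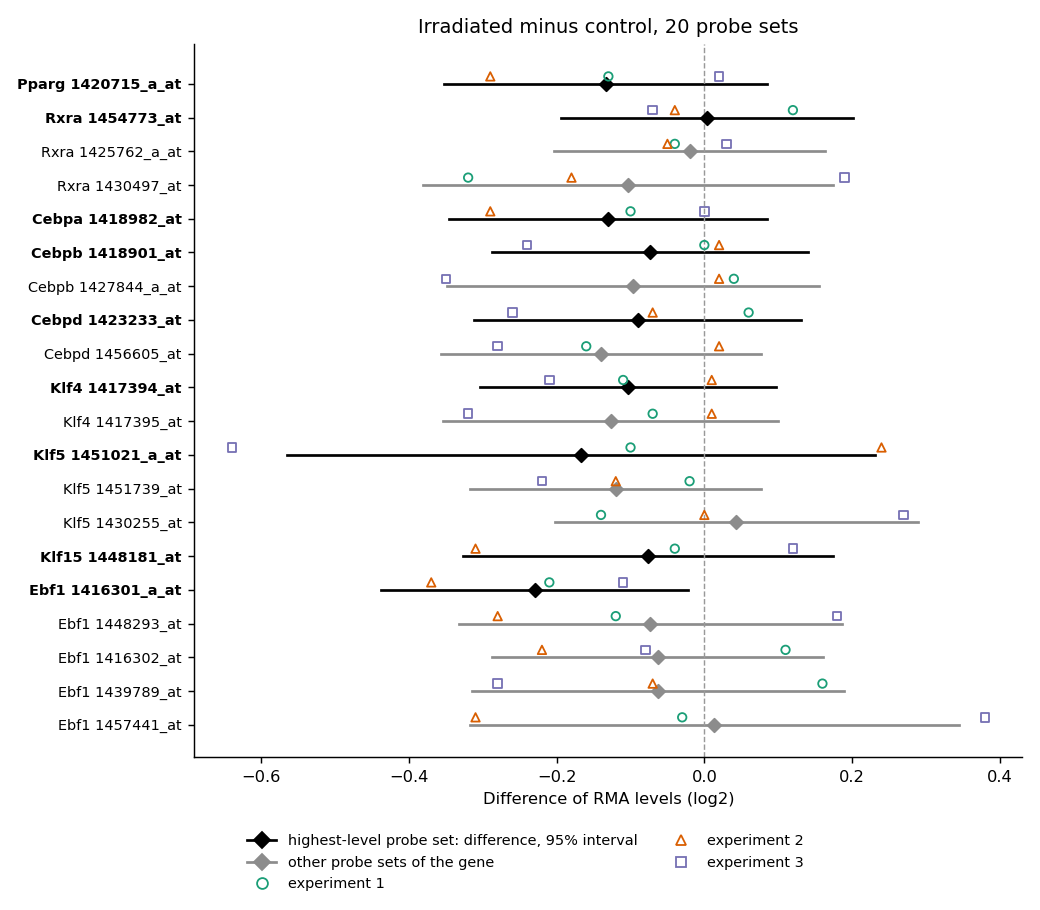
Irradiated minus control log2 levels for the 20 member probe sets, with 95% intervals of limma's fit as lines, the fitted difference as a diamond and each experiment as an open symbol. The interval of the highest-level Ebf1 probe set lies just below 0. The experiment 3 value of the highest-level Klf5 probe set is the lowest point at -0.64.

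Other genes of the same families and of the signals in the induction mix were set beside the 9 as 9 lists. These lists were chosen with earlier results of these data known. Only 2 of the 4 other C/EBP genes were measured. Ddit3, which encodes the stress-induced C/EBP relative CHOP that blocks CEBPB from DNA, stood at 9.72, 10.75 and 11.45 in irradiated cultures 1, 2 and 3, and at 9.84, 10.79 and 11.93 in their controls. Like Cebpb and Cebpd, it was lowest in experiment 1 and highest in control culture 3, with 1.91 between experiments 3 and 1 (limma adjusted p = 0.0022). Cebpg had a difference of 0.46 that did not pass (limma adjusted p = 0.11).

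Of 13 measured other Krüppel-like factor genes 3 were higher in experiment 3 than in experiment 1 and none was lower. Over all probe sets 1.87% passed as higher and 1.18% as lower. The list median was 0.11 against -0.01 over all probe sets. Klf2, which in mouse preadipocytes represses Pparg, was higher by 2.54 ± 0.11 and also by 1.46 in experiment 2 than in experiment 1 (limma adjusted p = 0.00060 and 0.0083). Klf6 was higher by 1.10 ± 0.11, and Klf16, named after its value was seen, by 0.68 ± 0.09 (limma adjusted p = 0.0076 and 0.021). Klf9, the brightest of the list, lay between 12.34 and 12.54 on all arrays. Among 3 other EBF genes Ebf2, a brown-fat factor, was lower in experiment 3 than in experiment 1 as Ebf1 was, with a difference of -0.70 ± 0.10 (limma adjusted p = 0.023). Ebf3 and Ebf4 did not pass, at -0.27 and 0.14. The 5 measured PPAR, RXR and LXR genes had differences between -0.06 and 0.25 in that contrast, with Rxrg at 0.25 and Ppard at 0.15, and 0 of them passed.

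Of 14 measured genes that cAMP signalling induces, 9 were higher in experiment 3 than in experiment 1, where 1.87% of all probe sets were. In experiment 2 against experiment 1, 8 were higher, as were 0.473% of all probe sets. None was lower in these comparisons, where 1.18% and 0.0466% of all probe sets were. With dim probe sets left out, 1250 of 23097 passed as higher between experiments 3 and 1 and 1346 as lower. The list median between experiments 3 and 1 was 1.48. Fosb, a subunit of the AP-1 factor, stood at 4.11, 8.40 and 9.92 in irradiated cultures 1, 2 and 3, and at 4.37, 8.74 and 9.96 in their controls. Ptgs2, the inducible prostaglandin synthase COX-2, stood at 7.37, 11.71 and 11.80 in irradiated cultures 1, 2 and 3, and at 7.58, 11.56 and 12.32 in their controls. For both genes each array of experiment 1 lay below all 4 others. Fos had a difference of 2.27 ± 0.13 between experiments 3 and 1 (limma adjusted p = 0.0011). In contrast Pde3b, the phosphodiesterase that insulin activates, was at -0.31 and did not pass. Nor did Pde4d at -0.505, Pde4b at 0.07 and Dio2 at 0.17, all named after their values were seen. Which signal the 9 higher genes answered to was not tested.

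The 14 measured glucocorticoid target genes had a median of 0.18 between experiments 3 and 1. In experiment 3, 4 of them were higher and none was lower, against 1.87% and 1.18% of all probe sets. These were Dusp1, a phosphatase that switches off MAP kinases, at 2.16 ± 0.10, Errfi1, an inhibitor of the EGF receptor, at 1.32 ± 0.13, and Sgk1 and Pdk4, both named after their values were seen, at 0.89 and 0.51 (limma adjusted p = 0.0092 and 0.048). The metallothionein genes Mt1 and Mt2 lay between 13.96 and 14.11 and between 13.45 and 13.64 on all arrays. Fkbp5, a classical steroid target also named after its value was seen, was at -0.19 and did not pass.

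Of 22 other pro-adipogenic regulators 1 was higher and 2 were lower in experiment 3 than in experiment 1. Over all probe sets the shares were 1.87% and 1.18%. Egr2, also called KROX20, which acts upstream of Cebpb, was higher by 2.25 ± 0.10 (limma adjusted p = 0.00060). Zfp423, a marker of committed preadipocytes, had a difference of -0.93 ± 0.11 (limma adjusted p = 0.012), and the glucocorticoid receptor gene Nr3c1, named after its value was seen, one of -0.56 ± 0.09 (limma adjusted p = 0.038). Of 21 measured genes listed as anti-adipogenic regulators 2 were higher and 1 was lower. Sirt1, a deacetylase that represses PPARG, was higher by 1.72 ± 0.10 (limma adjusted p = 0.0011), and Twist1, named after its value was seen, by 0.80 ± 0.13 (limma adjusted p = 0.033). Snai2, a zinc finger factor that mouse work links to fat mass and that may not belong under this label, had a difference of -0.69 ± 0.11 (limma adjusted p = 0.032). Among the brightest genes of these lists Ctnnb1, the beta-catenin gene, lay between 13.19 and 13.31 on all arrays, and Atf4, a stress-response factor, between 11.76 and 12.38 (0.50 ± 0.09 between experiments 3 and 1, limma adjusted p = 0.052).

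The 25 measured target genes of PPARG and CEBPA had a median of -0.08 between experiments 3 and 1, against -0.01 over all probe sets. In experiment 3, 0 of them were higher and 1 was lower, against 1.87% and 1.18% of all probe sets. That gene was Hcar1, the lactate receptor of fat cells, at -0.55 ± 0.10, just past the threshold of 0.05 (limma adjusted p = 0.0499). Fgf21, a hormone gene, had a difference of 0.86 ± 0.17 that did not pass (limma adjusted p = 0.060). Between irradiated and control cultures 22 of the 25 targets had negative differences and 3 positive ones, whereas 47.6% of all probe sets were negative. The median was -0.28, against -0.10 over the 9 factors and 0.0033 over all probe sets. None passed, and 14 of the 25 had an unadjusted p under 0.05 by limma, as had 2237 of all 45037 probe sets. Lep, Pck1, Cidea, Ucp1 and Fgf21 were dim, with means below the median probe set level of 4.84. Of these Cidea and Fgf21 are among the 14. The list was chosen with earlier results of these data known, so these counts are a description and carry no test. The lowest p in this list belonged to Hcar1 at -0.56 ± 0.08 and the droplet gene Cidec at -0.48 ± 0.09.

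In the 8 other lists none passed between irradiated and control cultures, and the medians lay between -0.12 and -0.01. For cAMP response genes 12 of 14 differences were negative with a median of -0.12, which was 0.03 without experiment 3. The genes of lowest unadjusted p in these lists did not pass either. Among family members they were Klf2 at -0.25, Klf1 at 0.13, Ebf3 at -0.23, Ddit3 at -0.21 and Ppara, a receptor of fatty acid oxidation, at -0.14. Among regulators they were Mlxipl, the carbohydrate-responsive factor ChREBP, at -0.55, the coactivator gene Ppargc1b at -0.26, Gli1 at -0.23 and Gata2 at 0.19. Sult1a1 and Lcn2, both from the glucocorticoid list, were at -0.30 and -0.31, and Fosb was at -0.21. Of these genes Klf1, Ppara and Gli1 were dim, with means below the median probe set level of 4.84. The mean of the 6 measured fat-cell markers was 9.75 to 9.80 in irradiated cultures and 9.97 to 10.03 in controls. Of these 6 differences 5 were negative. All 6 markers are also in the list of PPARG and CEBPA target genes, so they repeat part of that list. The mean of the 10 macrophage and leukocyte markers was 11.301 to 11.364 in irradiated cultures and 11.132 to 11.295 in controls, so the ranges nearly met. Of these 10 differences 9 were positive and 0 negative, with a median of 0.08, whereas 51.1% of all probe sets were positive. The part of cell-type content in the differences of the 9 factors was not tested.

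**Figure D4:**
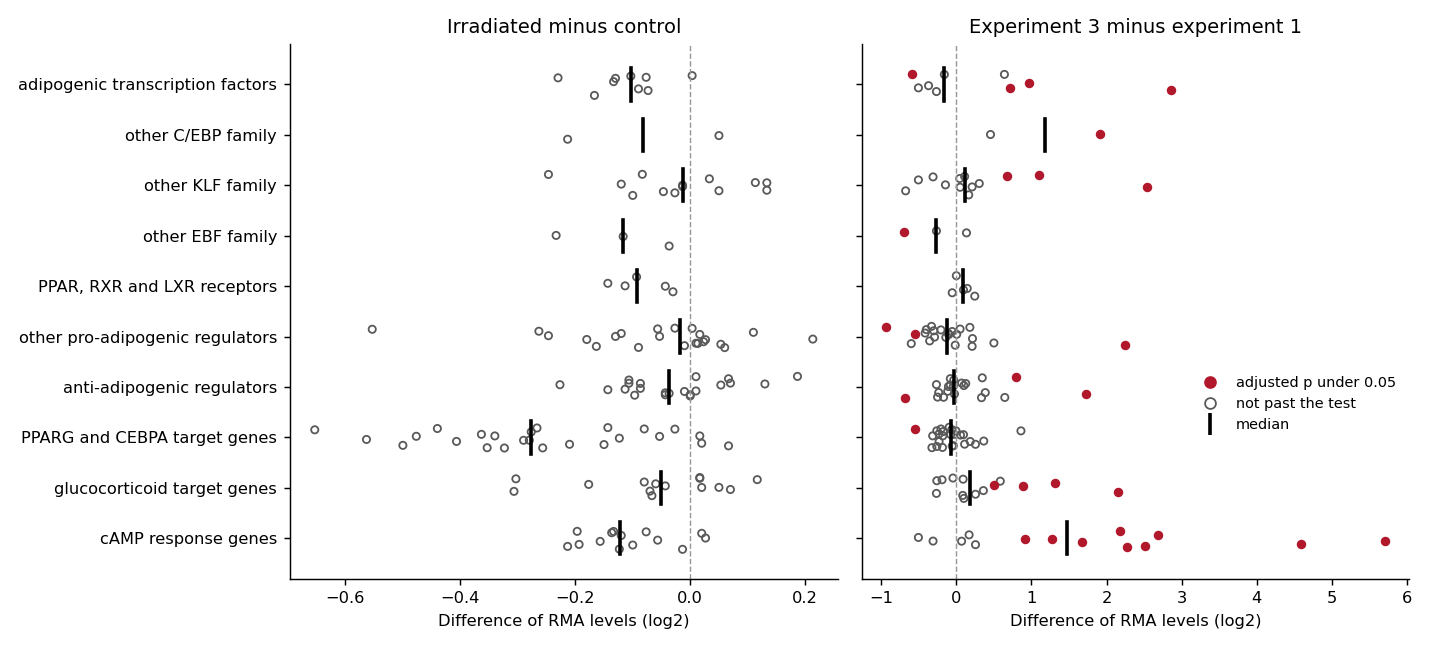
Differences of log2 levels for the 9 factors and for 9 lists of related genes, 1 point per measured gene, for irradiated minus control (left) and experiment 3 minus experiment 1 (right), with bars at the medians. Filled points passed limma's test at an adjusted p of 0.05. In the left panel no point is filled and the PPARG and CEBPA target genes have the lowest median, -0.28, and in the right panel the cAMP response genes have the highest, 1.48.

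For the 3 factors that spanned at least 1 log2 unit, the most similar profiles were found as the smallest root-mean-square difference over the 6 arrays after centring, among 20220 probe sets. Nearest to Klf4 were Tcim at 0.061, Btg2 at 0.11 and the cAMP-induced Nr4a2 at 0.15, against a span of 3.02 for Klf4 itself. Nearest to Cebpb were the glucose transporter gene Slc2a1 at 0.034, Gk5 at 0.039 and Atf2 at 0.053, against a span of 1.09. Nearest to Klf5 were Jmy at 0.051, Gsto2 at 0.058 and the amino acid transporter gene Slc7a5 at 0.074, against a span of 1.01. With 6 arrays in 3 pairs, these are descriptions of likeness and carry no test.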

How the data were processed

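The deposited log2 values, 1 per probe set and array, come from RMA per the submitters' processing notes, which also name affy and limma, without versions. RMA corrects background, makes array distributions equal and summarizes probes, so a shift common to all transcripts is removed. The file states no log base, and base 2 was assumed because RMA uses it. The 64 control probe sets were left out of 45101. Of the other 45037, 34945 have 1 gene symbol in the platform annotation, 932 several and 9160 none. Positions and promoter windows are from RefSeq on GRCm38.p6.

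Tests used limma 3.58.1 under R 4.3.3 (lmFit and eBayes, two-sided, Benjamini-Hochberg over 45037 probe sets, threshold 0.05, 95% intervals). Irradiated minus control had the experiment as a fixed block, and contrasts of experiments had irradiation as a fixed term. The number of arrays limits the precision, and with 3 pairs the smallest two-sided p of an exact sign-flip test is 0.25. Scripts were tested on simulated data. The pairing comes from the series design. Deviations of paired arrays correlated with r = 0.63, 0.14 and 0.50, and irradiated culture 2 correlated with control 3 at 0.15.

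The members and lists were chosen with earlier results of these data known, and lists are described by counts and medians with no test. Of 166 listed genes 150 were measured. Named genes were the members, the 3 nearest profiles of each member spanning at least 1, and from each list the 2 brightest genes and the 2 with the smallest unadjusted p in each of 2 contrasts. Alternatives were quantile normalization, median centring, a filter on level, an intensity trend, a robust prior, array weights, the mean of a gene's probe sets, no or a random replicate block, no irradiation term, 1 arm alone, and leaving out arrays or pairs. Scanner files were not used here.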

Additional observations from a re-analysis of the deposited data

How the results depend on the processing

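Alternatives were planned with the tests. Without the replicate block, 0 probe sets passed between irradiated and control cultures by limma (1297 with an unadjusted p under 0.05, against 2237 in the paired fit), and 0 passed under each other setting. Leaving out 1 experiment moved the median over the 9 genes between -0.14 and -0.05, Rxra between -0.055 and 0.04, Klf15 between -0.18 and 0.04, Cebpb between -0.12 and 0.01, Klf5 between -0.37 and 0.07, and the pro-adipogenic median between -0.05 and 0.00. Rxra was at -0.017 with median centring and at -0.04 with the mean of its probe sets, and that setting put the pro-adipogenic median at -0.049. Probe sets called between experiments 3 and 1 were 1374 (841 higher, 533 lower). They were 2596 of 23097 with dim ones left out (1250 higher, 1346 lower). They were 3534 with an intensity trend (1596 higher, 1938 lower) and 747 with probe sets averaged per gene. Between experiments 2 and 1 they were 234, and 365, 670 and 140 under these settings, and between experiments 3 and 2 they were 16, and 55 with dim ones left out, 275 with the trend and 52 with no irradiation term. Averaging leaves fewer features, and the cause of the other shifts was not tested. Leaving out any array gave 0 in each. Of the 9 genes 4 passed between experiments 3 and 1 and 1 between experiments 2 and 1, against 0 without any array, and 2 with the trend in the second, where Cebpb joined Klf4 (limma adjusted p = 0.0023). Ebf1 lost its call with no irradiation term (limma adjusted p = 0.072). Without an array, Klf4 ranged from 2.78 to 2.94 between experiments 3 and 1. Between experiments 2 and 1 Cebpa ranged from -0.235 to 0.005 and Pparg from -0.0575 to 0.178, with -0.02 for Pparg in irradiated cultures alone. Between experiments 3 and 2 Klf15 ranged from -0.08 to 0.27 (-0.12 in controls alone), Cebpa from -0.165 to 0.075 (0.10 in irradiated cultures alone) and Klf5 from -0.085 to 0.625 (-0.17 in irradiated cultures alone). Averaging probe sets put medians between experiments 3 and 1 at 0.88 for other C/EBP, 0.015 for anti-adipogenic, 0.24 for glucocorticoid and 0.75 for cAMP genes, and the Krüppel-like list was at 0.10 with quantile normalization and 0.13 with median centring.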
